A study of Mus musculus with 8 samples.

Results

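The genes described here are 10 genes of the integrated stress response that act through or around the transcription factor ATF4: *Chac1*, *Atf4*, *Ddit3*, *Atf3*, *Trib3*, *Asns*, *Sesn2*, *Psat1*, *Phgdh* and *Atf5*. They are 10 of the 49315 genes counted, were taken by name, and were chosen by people who already knew how this genotype contrast came out for some of them, *Chac1* first. Their differences between genotypes are therefore given as a description, with no test. The question put to them was whether *Chac1* moved alone. All 10 passed the filter on low counts, which left 17163 genes to be tested.

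In the integrated stress response, kinases that sense amino acid shortage, unfolded protein, heme shortage, mitochondrial stress or viral RNA phosphorylate the alpha subunit of the initiation factor eIF2. Most translation then slows while the messenger RNA of *Atf4* is translated more, so that ATF4 protein is set mainly by translation and not by its message. ATF4 switches on genes of amino acid uptake and synthesis, tRNA charging and glutathione breakdown, and also its own partners and brakes, such as *Ddit3* and *Trib3*.

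The data are bulk RNA-seq of mouse hearts at embryonic day 9.5 in 8 libraries, 4 from wild-type embryos and 4 from embryos homozygous for Tbx20EH1Mut. This allele carries a substitution of 2 amino acids in the engrailed homology domain of Tbx20, a T-box transcription factor of the heart, and was made by genome editing to ask what the binding of Tbx20 to TLE corepressors does. It is carried in every cell of the embryo as 1 mouse line, so no cell type is singled out by a promoter or Cre. Each library held 3 pooled hearts, and embryos of both genotypes were collected at the same embryonic day. At that day the study describes Tbx20EH1Mut embryos as growth retarded, with pericardial edema and heart tubes that had not looped or formed chambers. The same day therefore need not mean the same stage of the heart.

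Total counts ranged from 33359322 to 49523086 in wild-type and from 36250675 to 38357025 in Tbx20EH1Mut libraries, and the difference in means was within the spread between libraries (exact two-sided permutation test over 70 arrangements, p = 0.143). *Tbx20* itself was counted in every library, at 368 ± 11.1 CPM (counts per 1000000 counts of the scaled library) in wild-type and 267 ± 44.9 CPM in Tbx20EH1Mut hearts (SD, n = 4 each). Its log2FC (log2 fold change, Tbx20EH1Mut over wild-type) was -0.46 ± 0.133 (SE, derived from edgeR's F statistic). The substituted codons cannot be seen in gene counts, and the labels gave each library's genotype. Cardiomyocyte markers gave like sums in both genotypes, 20947 to 27067 against 20822 to 29777 CPM (exact permutation test, p = 0.829). Of the 8 markers 1 was called higher, *Myl3* (log2FC 0.75), and 1 lower, *Actn2* (-0.52). Such sums are shares of a library and do not count cells. The study reports fewer cardiomyocytes in Tbx20EH1Mut hearts at this day, counted on stained sections. All 8 primitive red cell markers fell, from a summed 1771 to 4619 CPM to 320.3 to 1028 CPM, and 5 of 9 foregut epithelium markers rose, from a summed 189.6 to 294 CPM to 655 to 886 CPM. Endothelial markers summed to 642 to 827 CPM in wild-type and 833 to 913 CPM in Tbx20EH1Mut libraries, with 3 of 8 called higher. Each of these 3 sums gave p = 0.0286 in the exact permutation test, the smallest that 4 libraries against 4 allow. Most of the foregut sum was *Krt8* and *Krt18*, and without them the genotypes overlapped, with wild-type replicate 2 at 60.9 CPM and Tbx20EH1Mut replicate 3 at 31.9 CPM. In whole hearts, fewer cells of a type and less RNA per cell cannot be told apart.

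The promoters were read first for the C/EBP-ATF response element, the composite site that ATF4 binds with a C/EBP partner. The letters TGATGNAAN were searched on both strands from 250 bases before to 50 bases after each start site. At least 1 match was found in 4 of the 10 genes, *Chac1*, *Atf3*, *Asns* and *Trib3*, against 3.95% of all 32851 RefSeq promoters. The fuller form ATTGCATCA and the cAMP response element TGACGTCA were in none of the 10 genes, against 0.192% and 1.79% of all promoters. These are the matches with 10 bases on either side, 5′ to 3′ on the strand of the gene, with the matched letters in capitals, shown because they are where the sequences of the members are alike.
Chac1: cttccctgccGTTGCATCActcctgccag
Atf3: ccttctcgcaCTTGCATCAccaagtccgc
Asns: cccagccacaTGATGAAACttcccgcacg
Trib3: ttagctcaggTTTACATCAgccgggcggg
The first base of the match lay at -194 from the start site in *Chac1* (chr2:119351048-119351056, plus strand, GRCm38.p6), at -111 in *Atf3* (chr1:191183436-191183444, minus strand) and at -23 in *Asns* (chr6:7693224-7693232, minus strand). In *Trib3* it lay at +14 from the RefSeq start (chr2:152344039-152344047, minus strand), which is still upstream of the first exon that the count tables list for that gene. Over the 250 upstream bases alone, 3 of the 10 genes and 3.44% of promoters held the letters. A match does not show that the site is bound in these hearts.

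*Chac1* is the member with the widest difference, so the 250 bases upstream of its RefSeq start (chr2:119350992-119351241, plus strand, GRCm38.p6) are printed whole, with the matched element in capitals. Its last bases lie inside the first exon listed in the count tables.
Chac1: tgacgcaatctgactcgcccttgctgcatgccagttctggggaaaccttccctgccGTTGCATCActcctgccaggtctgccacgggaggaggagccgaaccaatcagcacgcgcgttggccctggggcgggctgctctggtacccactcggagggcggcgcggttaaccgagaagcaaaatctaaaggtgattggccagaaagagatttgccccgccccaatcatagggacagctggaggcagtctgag

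*Chac1* was not the only member that differed, and it differed most. Of the 10 genes, *Chac1*, *Trib3* and *Ddit3* met the call rule in the fit across all genes (edgeR's adjusted p no greater than 0.05, with a log2FC of 0.5 or more in either direction), all higher in Tbx20EH1Mut hearts. None was called lower and 7 were not called. Over all genes tested, 12.5% were called higher and 12.1% lower. In 5 members, *Chac1*, *Trib3*, *Ddit3*, *Atf4* and *Atf3*, every Tbx20EH1Mut library lay above every wild-type library, as in 14.7% of all genes tested, and in none did every library lie below, as in 15.7% of all genes. Since this contrast chose the members, nothing is read from these counts. The median log2FC of the 10 was 0.53, and that of all genes tested was 0.005.

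**Figure D1:**
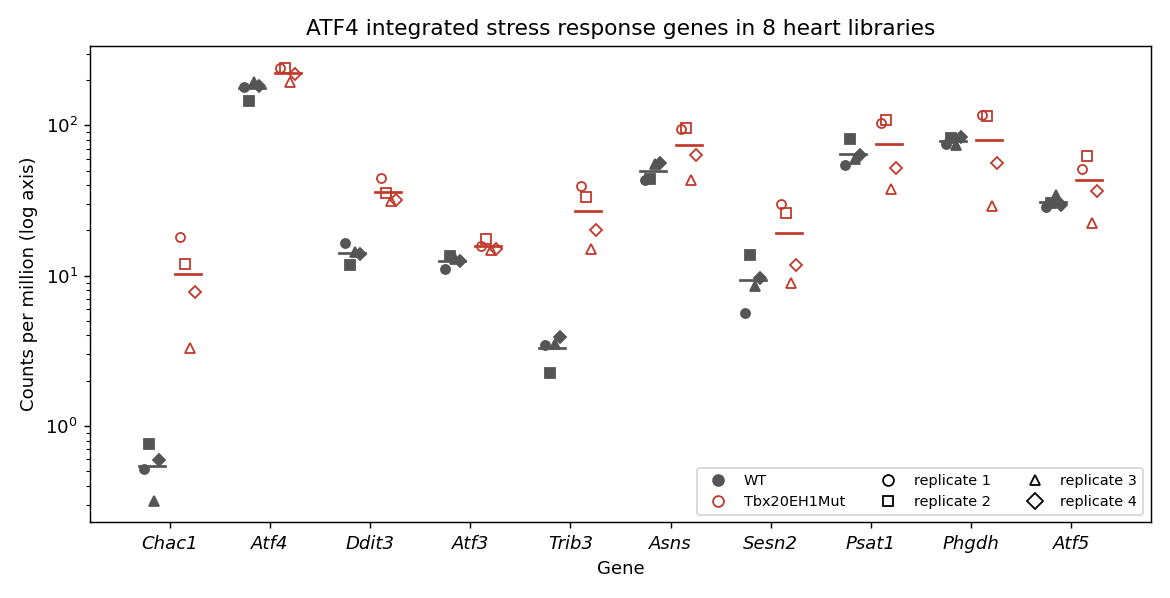
CPM (log axis) of the 10 genes in each library, filled grey symbols for wild-type and open red symbols for Tbx20EH1Mut, with a symbol shape for each replicate number and a line at each group mean. *Chac1*, *Trib3* and *Ddit3* separate by genotype with the widest gaps, and Tbx20EH1Mut replicate 3 (triangles) is the lowest Tbx20EH1Mut library of every gene.

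*Chac1* (ENSMUSG00000027313, chr2:119351229-119354381, plus strand, GRCm38) encodes an enzyme that breaks down glutathione. Wild-type replicates 1 to 4 held 0.516, 0.754, 0.319 and 0.589 CPM, from 17, 37, 16 and 27 counts. In Tbx20EH1Mut replicates 1 to 4 it was 18.2, 11.9, 3.31 and 7.74 CPM, from 702, 449, 106 and 292 counts. It was thus barely counted in wild-type hearts and present in every Tbx20EH1Mut library, although those libraries differed from each other 5.49-fold. The means were 0.544 ± 0.18 and 10.3 ± 6.33 CPM (SD, n = 4 each), the log2FC was 4.23 ± 0.516 (SE), and it ranked 13 from the top among the genes tested. When the averaged foregut marker level entered the fit as a covariate, the log2FC was 2.64. This level averages the log2 CPM of the 9 markers, among which *Krt8* and *Krt18* are also expressed by mesothelium and early myocardium, so it is an imperfect measure of foregut tissue wherever it is used here. The 9 markers also stood higher on average in Tbx20EH1Mut hearts, so the fit can separate marker level from genotype only in part.

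*Trib3* (ENSMUSG00000032715, chr2:152337422-152344032, minus strand), a pseudokinase induced by ATF4 that restrains it in turn, was the next member. It stood at 3.46, 2.24, 3.53 and 3.91 CPM in wild-type and at 39.8, 33.3, 15.1 and 20.3 CPM in Tbx20EH1Mut replicates 1 to 4. The lowest Tbx20EH1Mut library was well above the highest wild-type library, and the log2FC was 3.05 ± 0.318 (SE, rank 83).

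*Ddit3* (ENSMUSG00000025408, chr10:127290774-127296288, plus strand) encodes CHOP, a C/EBP family factor of prolonged stress. It was at 16.6, 11.9, 14.4 and 13.9 CPM in wild-type and at 44.7, 35.3, 31.6 and 31.8 CPM in Tbx20EH1Mut replicates 1 to 4. The groups did not overlap and the log2FC was 1.34 ± 0.152 (SE, rank 997). Its exons share 68 bases, 3.97% of their length, with those of *Mars1* on the other strand, and the strand setting of the counting is not given in the sources used here. *Mars1* was lower in Tbx20EH1Mut hearts (log2FC -0.57).

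Of the ATF transcription factors themselves, the messages of *Atf4* and *Atf3* differed little, and that of *Atf5* was high in Tbx20EH1Mut replicates 1 and 2. *Atf4* (ENSMUSG00000042406, chr15:80255184-80257540, plus strand) was at 182, 146, 194 and 184 CPM in wild-type and at 241, 243, 196 and 219 CPM in Tbx20EH1Mut replicates 1 to 4. Every Tbx20EH1Mut library was above every wild-type library, replicate 3 by a small margin, and the log2FC of 0.35 ± 0.125 (SE) was not called. *Atf3* (ENSMUSG00000026628, chr1:191170296-191218039, minus strand), a stress-induced repressor and activator that is also an immediate early gene, was at 11.0, 13.6, 12.8 and 12.6 CPM in wild-type and at 15.7, 17.6, 14.7 and 15.0 CPM in Tbx20EH1Mut libraries. Here too the groups did not overlap, and the log2FC of 0.33 ± 0.125 (SE) was not called. *Atf5* (ENSMUSG00000038539, chr7:44812256-44816658, minus strand), which is translated under stress in the same way as *Atf4*, overlapped between genotypes. It was at 28.5, 30.7, 34.5 and 29.5 CPM in wild-type and at 51.2, 62.4, 22.4 and 36.8 CPM in Tbx20EH1Mut libraries, a log2FC of 0.49 ± 0.258 (SE). Its exons share 82 bases, 4.11% of their length, with exons of *Nup62* and *Il4i1* on the other strand.

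The amino acid enzymes among the members were high in a pair of Tbx20EH1Mut libraries and near or below wild-type in the others. *Asns* (ENSMUSG00000029752, chr6:7675169-7693254, minus strand), which makes asparagine, was at 43.1, 44.3, 55.7 and 56.1 CPM in wild-type and at 95.4, 95.6, 43.4 and 63.3 CPM in Tbx20EH1Mut replicates 1 to 4. Its log2FC was 0.58 ± 0.234 (SE), not called. *Phgdh* (ENSMUSG00000053398, chr3:98313170-98339990, minus strand) encodes the first enzyme of serine synthesis. It was at 75.7, 83.1, 74.6 and 84.1 CPM in wild-type and at 117, 116, 29.2 and 56.6 CPM in Tbx20EH1Mut libraries. Replicates 1 and 2 lay above and replicates 3 and 4 below all wild-type libraries, so that the log2FC of 0.003 ± 0.356 (SE) hides a 4.0-fold range. *Psat1* (ENSMUSG00000024640, chr19:15904678-15947337, minus strand), the next enzyme of that pathway, behaved alike, at 54.3, 81.4, 60.0 and 63.2 CPM in wild-type and 104, 109, 37.5 and 51.8 CPM in Tbx20EH1Mut libraries. Its log2FC was 0.22 ± 0.311 (SE).

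*Sesn2* (ENSMUSG00000028893, chr4:132492032-132510501, minus strand) encodes a stress-induced inhibitor of mTORC1 signalling. It was at 5.67, 13.6, 8.53 and 9.62 CPM in wild-type and at 29.8, 26.3, 8.94 and 11.8 CPM in Tbx20EH1Mut replicates 1 to 4, and the genotypes overlapped. Its log2FC of 1.03 ± 0.393 (SE) was as wide as that of many called genes but was not called, except with DESeq2, with the cardiomyocyte marker level as a covariate, and without Tbx20EH1Mut replicate 3. In the fit that added foregut marker level, its log2FC was -0.07, that of *Psat1* was -0.59 and that of *Phgdh* was -0.75, while *Trib3* was at 2.94, *Ddit3* 1.44, *Atf4* 0.52, *Asns* 0.36, *Atf3* 0.18 and *Atf5* 0.17. *Asns*, *Sesn2* and *Atf5* were each called when Tbx20EH1Mut replicate 3 was left out, with log2FC values of 0.77, 1.28 and 0.71, which brought the called members to 6.

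**Figure D2:**
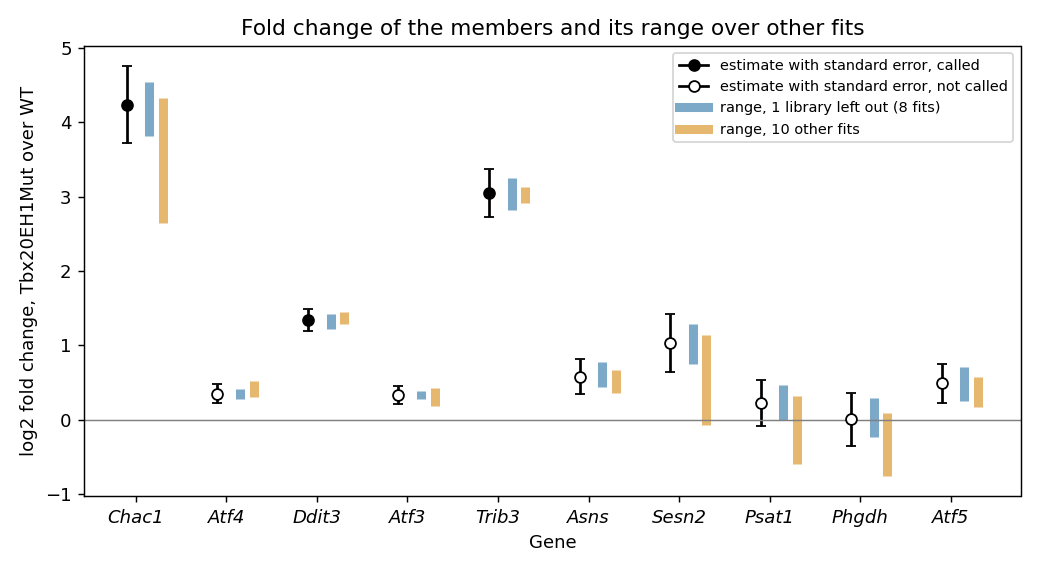
Log2 fold change (Tbx20EH1Mut over wild-type) of the 10 genes with its standard error (filled, called; open, not called), beside its range when 1 library was left out in turn (blue, 8 fits) and over 10 other fits of all 8 libraries (orange). *Chac1*, *Trib3* and *Ddit3* stay above 1 throughout, and the orange bars of *Sesn2*, *Psat1* and *Phgdh* reach below 0.

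Set against the mean of the other 9 members within each library, *Chac1* was lower by 5.65 ± 0.530 on the log2 CPM scale in wild-type hearts and lower by 2.37 ± 0.559 in Tbx20EH1Mut hearts (SD, n = 4 each). The gap thus narrowed by 3.28. Per library the difference was -5.54, -5.12, -6.38 and -5.54 in wild-type replicates and -1.75, -2.33, -3.11 and -2.30 in Tbx20EH1Mut replicates 1 to 4, with no overlap. The mean of the other 9 was 4.74 ± 0.0838 in wild-type and 5.48 ± 0.531 in Tbx20EH1Mut libraries. The median log2FC of the other 9 was 0.49.

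Levels between genes were compared per length, as counts per kilobase of exon scaled to the same total in each library. In wild-type hearts *Atf4* stood highest, at 260.0 ± 18.4, followed by *Phgdh* at 82.5 ± 16.2. *Asns* (46.7 ± 7.86), *Psat1* (40.0 ± 13.7) and *Atf5* (39.9 ± 6.96) overlapped from neighbour to neighbour on this per-length scale. Then came *Ddit3* at 21.0 ± 0.624, below which *Atf3* (15.1 ± 3.46), *Sesn2* (7.21 ± 3.64) and *Trib3* (3.89 ± 0.581) again overlapped in turn. *Chac1*, at 0.879 ± 0.411 per length, was the lowest and did not overlap with *Trib3*. In Tbx20EH1Mut hearts *Chac1* was at 14.3 ± 9.59 and *Trib3* at 28.6 ± 14.3 per length, beside 45.8 ± 11.9 for *Ddit3* and 285 ± 57.7 for *Atf4* (SD, n = 4 each).

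Within the Tbx20EH1Mut libraries the members kept 1 order. In all 10 genes replicates 1 and 2 lay above replicate 4, and replicate 4 above replicate 3, although the last step was small in *Ddit3* and *Atf3*. This order, read from the members after their values were seen, held for 22.5% of all genes tested, and replicate 3 was the lowest Tbx20EH1Mut library for 37.0% of them. It also held for 7 of 9 amino acid transporters and 8 of 11 other amino acid and one-carbon enzymes. In the ATF4 program it held for 10 of 13 tRNA charging genes and 5 of 8 other induced genes. Outside that program it held for 5 of 8 targets of the oxidant sensor NRF2, 4 of 6 neural crest markers and 4 of 8 red cell markers. It held for 3 of 8 other tRNA synthetases, 3 of 8 mitochondrial chaperones and proteases and 3 of 13 targets of p53. Lower shares were 1 of 10 other glutathione genes, 2 of 19 endoplasmic reticulum chaperone and degradation genes and 0 of 13 immediate early genes. *Chac1* spanned 5.49-fold from highest to lowest Tbx20EH1Mut library, *Phgdh* 4.0-fold, *Sesn2* 3.33-fold and *Psat1* 2.91-fold, against 1.24-fold for *Atf4* and 1.20-fold for *Atf3*. Over tested genes averaging 5 CPM or more, deviations of wild-type replicate 1 from its genotype mean correlated with those of Tbx20EH1Mut replicates 1 to 4. The values were -0.51, -0.62, 0.66 and 0.22. For wild-type replicate 2 they were 0.57, 0.45, -0.58 and -0.24, and for wild-type replicates 3 and 4 from -0.27 to 0.16. These library differences thus ran across many genes of both genotypes, and their source was not tested.

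The foregut epithelium markers kept the same order in 6 of 9 genes. Summed without *Krt8* and *Krt18*, which made up most of the sum and were left out after the values were seen, the other 7 reached 3.13, 60.9, 1.08 and 8.27 CPM in wild-type and 200.3, 167, 31.9 and 80.9 CPM in Tbx20EH1Mut replicates 1 to 4. Wild-type replicate 2, the highest wild-type library for these markers, was also the highest for *Chac1*, *Sesn2*, *Psat1* and *Atf3*, but the lowest for *Atf4*, *Ddit3* and *Trib3*. Their part in the differences between genotypes was examined only by the covariate fit given above. Red cell markers were also lowest in Tbx20EH1Mut replicate 3, for 7 of 8 genes, and their part in the order was not tested.

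**Figure D3:**
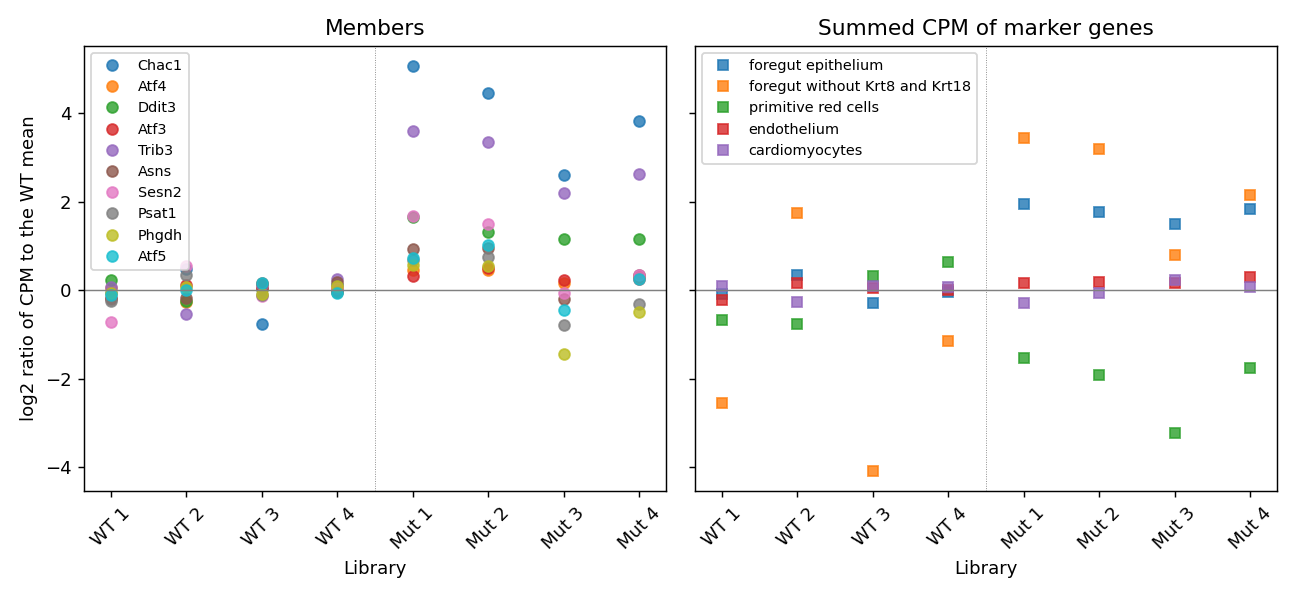
Log2 ratio of each library's CPM to the wild-type mean, for the 10 genes (left) and for the summed CPM of 4 marker lists, with the foregut list also shown without *Krt8* and *Krt18* (right). The Tbx20EH1Mut replicates 1 and 2 carry the highest points of every member. Among the Tbx20EH1Mut points replicate 3 is the lowest, and the foregut markers without the keratins are ordered alike.

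After the mean of each genotype was subtracted from log2 CPM, the other 9 members had a median Pearson correlation of 0.73 with *Chac1* over the 8 libraries (0.26 for *Atf4* to 0.90 for *Phgdh*), and the median over all 10947 tested genes averaging 5 CPM or more, *Chac1* apart, was -0.02. The points share pooled hearts and library makeup, and no test was made. Tbx20EH1Mut replicate 3 carried most of it: without that library the median over the other 9 was 0.24. Among the 4 wild-type libraries alone it was -0.53, and among the 4 Tbx20EH1Mut libraries alone 0.94. Of the genes at that level, the 5 most like *Chac1* over the 8 libraries, by the same correlation without subtracting genotype means, were *Stc2* (0.993), *Hook2* (0.991), *Ciart* (0.987), *Espn* (0.987) and *Polk* (0.984). With genotype means subtracted their correlations were 0.94, 0.92, 0.96, 0.89 and 0.88. *Stc2*, a secreted glycoprotein induced by ATF4, stood at 8.71, 9.59, 7.61 and 7.62 CPM in wild-type and at 79.5, 63.7, 30.0 and 43.3 CPM in Tbx20EH1Mut libraries. *Hook2*, a linker of the cytoskeleton, had a log2FC of 1.14, *Ciart*, a repressor of the circadian clock, 1.98, *Espn*, an actin bundler, 3.60, and *Polk*, a translesion DNA polymerase, 0.54. The call of *Polk* was lost without wild-type replicate 3 or 4, with library size alone (log2FC 0.49) and with the foregut covariate (0.41, edgeR adjusted p = 0.186). With that covariate *Espn* was at 1.96, *Stc2* at 2.06, *Ciart* at 1.58 and *Hook2* at 0.79. Since these 5 genes were chosen for following *Chac1* across both genotypes, a difference between genotypes was built into the choice. Nothing is read from their fold changes or calls here. *Stc2* also belongs to a list given below and is counted there as a gene of that list.

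The rest of the stress response program was read from lists of textbook genes that are not members. These lists and those below were chosen with earlier results of these data known. Their counts and adjusted p values are therefore a description and no independent test. Over all genes tested, 12.5% were called higher and 12.1% lower, and no list was tested against these shares. Among 10 other induced genes, 8 were tested, 5 rose and 0 fell, with a median log2FC of 1.15. *Ddit4*, an inhibitor of mTORC1, rose from 33.8, 22.9, 28.3 and 29.5 CPM in wild-type to 347, 313, 167 and 228 CPM in Tbx20EH1Mut replicates 1 to 4 (log2FC 3.20 ± 0.237 SE, adjusted p = 3.74e-05). *Stc2*, counted here only as a gene of this list, had a log2FC of 2.69 ± 0.275 (SE). *Vldlr*, a lipoprotein receptor, rose with 2.0 ± 0.136 (SE, adjusted p = 2.41e-05). *Cebpb*, a C/EBP partner of ATF4 (1.49), and *Eif4ebp1*, which holds back cap-dependent translation (0.61), also rose. *Nupr1* and *Fgf21* were too low to be tested. *Ddit4*, *Stc2* and *Vldlr* are also known to be induced in low oxygen, and all 14 genes of a list of targets of the hypoxia factor HIF, *Ddit4* among them, rose, with a median of 1.46. Of these *Pfkfb3* lost its call with the foregut covariate (0.21) and without wild-type replicate 3 or 4 or Tbx20EH1Mut replicate 1, and *Slc2a1* without Tbx20EH1Mut replicate 3 (0.49). In that list *Ndufa4l2*, a mitochondrial protein, rose from 3.41 ± 1.18 to 116 ± 12.6 CPM (SD, n = 4 each) and *Ankrd37* from 7.44 ± 0.878 to 40.7 ± 3.55 CPM. The order of Tbx20EH1Mut libraries seen in the members held for 3 of the 14. The part of either program in *Ddit4*, *Stc2* and *Vldlr* was not tested.

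Of 9 amino acid transporters, 4 rose and 1 fell, around a median log2FC of -0.18. *Slc7a3*, a carrier of cationic amino acids, rose from 1.06, 1.10, 1.10 and 1.18 CPM to 14.6, 16.3, 6.94 and 12.7 CPM (log2FC 3.5 ± 0.272 SE, adjusted p = 4.62e-05). The cystine carrier *Slc7a11* (1.49), the neutral amino acid carrier *Slc1a4* (1.12) and the shared heavy chain *Slc3a2* (0.52) also rose. The glutamine carrier *Slc1a5* fell, from 50.1 ± 9.66 to 24.0 ± 6.26 CPM (log2FC -1.06 ± 0.208 SE, adjusted p = 0.00526). With the foregut covariate *Slc7a11* (1.36, adjusted p = 0.0878), *Slc1a4* (0.37, adjusted p = 0.585) and *Slc3a2* (0.40, adjusted p = 0.305) lost their calls. Without wild-type replicate 3, Tbx20EH1Mut replicate 1 or Tbx20EH1Mut replicate 2, 3 of the 9 were called and not 5.

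Of 11 other enzymes of amino acid and one-carbon metabolism, 5 rose and 1 fell, with a median of 0.59. *Gpt2*, a mitochondrial alanine aminotransferase, was at 7.68, 11.5, 7.81 and 9.23 CPM in wild-type and at 44.1, 32.7, 12.3 and 18.7 CPM in Tbx20EH1Mut replicates 1 to 4 (log2FC 1.57 ± 0.349 SE, adjusted p = 0.00943). *Cth*, which releases cysteine from cystathionine, had a log2FC of 1.42 ± 0.354 (SE, adjusted p = 0.0154), and *Pck2*, the mitochondrial phosphoenolpyruvate carboxykinase, one of 1.08 ± 0.228 (SE, adjusted p = 0.00767). *Shmt2* (0.68) and *Mthfd1l* (0.59), mitochondrial enzymes of the folate cycle, also rose, and the aspartate aminotransferase *Got1* fell (-0.58). When foregut marker level was added to the fit, all 6 of these genes lost their calls, *Gpt2* at 0.60, *Cth* at 0.62, *Pck2* at 0.87, *Shmt2* at 0.32, *Mthfd1l* at 0.36 and *Got1* at -0.36, and 2 others of the 11 were called. *Cth* also missed the threshold without wild-type replicate 4 (adjusted p = 0.0514). So did *Shmt2* without wild-type replicate 3 (adjusted p = 0.0579) or 4 (adjusted p = 0.0530), and *Got1* with upper-quartile scaling (log2FC -0.497).

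Among the tRNA charging genes none was called higher under the call rule. Of 13 genes of the ATF4 program, the synthetases and the tRNA exporter *Xpot*, 0 rose, 3 fell and 10 were not called, with a median of -0.25. *Wars*, the synthetase for tryptophan, fell from 93.1 ± 13.5 to 49.2 ± 5.6 CPM (log2FC -0.92 ± 0.133 SE, adjusted p = 0.00132), and *Aars* (-0.78) and *Mars1* (-0.57), those for alanine and methionine, were also called. Without wild-type replicate 2, 3 or 4 or Tbx20EH1Mut replicate 3 or 4, 1 of the 13 was called. Of 8 synthetases outside the program 0 rose and 2 fell, *Kars* (-0.56, adjusted p = 0.0232) and *Farsa* (-0.50, adjusted p = 0.00378), which charge lysine and phenylalanine. With no fold change threshold 5 of the 8 were called, among them *Dars*, which was higher (0.44, adjusted p = 0.013). *Kars* kept its call in 3 and *Farsa* in 4 of the 8 fits with a library left out, and 0 were called without wild-type replicate 2, Tbx20EH1Mut replicate 3 or Tbx20EH1Mut replicate 4. 

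Upstream of ATF4, 1 of 9 kinases, activators and phosphatase subunits rose and 4 fell. *Eif2ak1*, the heme-sensing kinase HRI, fell from 44.7 ± 8.01 to 25.5 ± 3.23 CPM (log2FC -0.81 ± 0.15 SE, adjusted p = 0.00405). *Oma1*, the mitochondrial protease that signals to this kinase, fell from 15.2 ± 1.42 to 9.13 ± 0.759 CPM (log2FC -0.73, adjusted p = 0.0035), and *Dele1*, the messenger between the pair, from 60.9 ± 10.4 to 42.6 ± 2.35 CPM (log2FC -0.52, adjusted p = 0.0187). *Gcn1*, the activator of the amino acid sensor GCN2, fell by 0.84 on the log2 scale (adjusted p = 0.0365), with wild-type replicate 2 at 173 CPM and the other wild-type libraries at 68.2 to 96.7 CPM. The kinases for viral RNA (*Eif2ak2*, log2FC -0.16), unfolded protein (*Eif2ak3*, -0.15) and amino acid shortage (*Eif2ak4*, 0.12) were not called. *Ppp1r15a*, the stress-induced phosphatase subunit that ends the response and is itself induced with it, rose from 23.6 ± 2.19 to 35.2 ± 4.11 CPM (log2FC 0.58 ± 0.122 SE, adjusted p = 0.00747), and its constitutive relative *Ppp1r15b* had a log2FC of -0.17, not called. *Gcn1* kept its call in 1 and *Dele1* in 4 of the 8 fits with a library left out, and the list had 3 calls and not 5 without wild-type replicate 2, 3 or 4 or Tbx20EH1Mut replicate 4. Of 8 subunits of eIF2 and its exchange factor eIF2B, 0 rose and 2 fell, *Eif2s1* (-0.71, adjusted p = 0.0125), the subunit the kinases phosphorylate, and *Eif2b1* (-0.59, adjusted p = 0.0105). *Eif2b1* was not called without Tbx20EH1Mut replicate 3, and with no fold change threshold 4 of the 8 subunits were called. Phosphorylation was not measured here.

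Neighbouring stress programs did not share one direction. Of 19 chaperone and degradation genes of the endoplasmic reticulum, driven by ATF6 and XBP1 and not by ATF4, 0 rose and 4 fell, with a median of -0.28. With no fold change threshold 7 of the 19 were called. *Hyou1* (-1.29, adjusted p = 0.00441), *Dnajc3* (-0.91, adjusted p = 0.000821) and *Dnajb11* (-0.86, adjusted p = 0.00069), all chaperones or their partners, fell most, and *Creld2* (-0.58) fell as well, but was not called with the foregut covariate (-0.31). Of 8 mitochondrial chaperones and proteases 0 rose and 2 fell, *Hspd1* from 965 ± 75.1 to 463 ± 52.6 CPM and *Hspa9* from 609 ± 36.9 to 395 ± 24.0 CPM. Of 10 other glutathione genes, the metabolism in which *Chac1* acts, 0 rose and 1 fell, near the 12.1% called lower over all genes tested. The gene that fell was *Gclc*, the catalytic subunit of the limiting enzyme of glutathione synthesis, which dropped from 31.7 ± 6.43 to 12.2 ± 3.03 CPM (log2FC -1.37 ± 0.211 SE, adjusted p = 0.0017). Without Tbx20EH1Mut replicate 3, or with no fold change threshold, 2 of the 10 were called. *Chac2*, the constitutive relative of *Chac1*, had a log2FC of 0.58 ± 0.262 (SE) and was not called.

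Of 8 targets of the oxidant sensor NRF2, 1 rose, the heme oxygenase *Hmox1* (0.85, adjusted p = 0.0011), and 2 fell, the reductases *Txnrd1* (-1.09, adjusted p = 0.0014) and *Srxn1* (-1.23). Over all genes tested 12.5% were called higher and 12.1% lower, so the share of this list that rose was no larger than that of all genes. Of 14 immediate early genes 13 were tested, 6 rose and 0 fell, among them *Ier3* (2.90, adjusted p = 0.000159), *Fos* (1.36, adjusted p = 0.00267) and *Junb* (0.95, adjusted p = 0.00122). Of 13 targets of p53, 4 rose and 3 fell. The kinase *Plk2* (0.69, adjusted p = 0.00294), the pro-apoptotic *Bbc3* (0.71), *Trp53inp1* (0.60) and *Sesn1* (0.51) rose, and the exonuclease *Aen* (-1.97, adjusted p = 0.00634), *Zmat3* (-0.66, adjusted p = 0.00119) and *Perp* (-0.93) fell. With the foregut covariate *Perp* (-0.21) and *Bbc3* (0.73, adjusted p = 0.179) were not called. Without wild-type replicate 4 the p53 list had 4 calls and not 7.

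**Figure D4:**
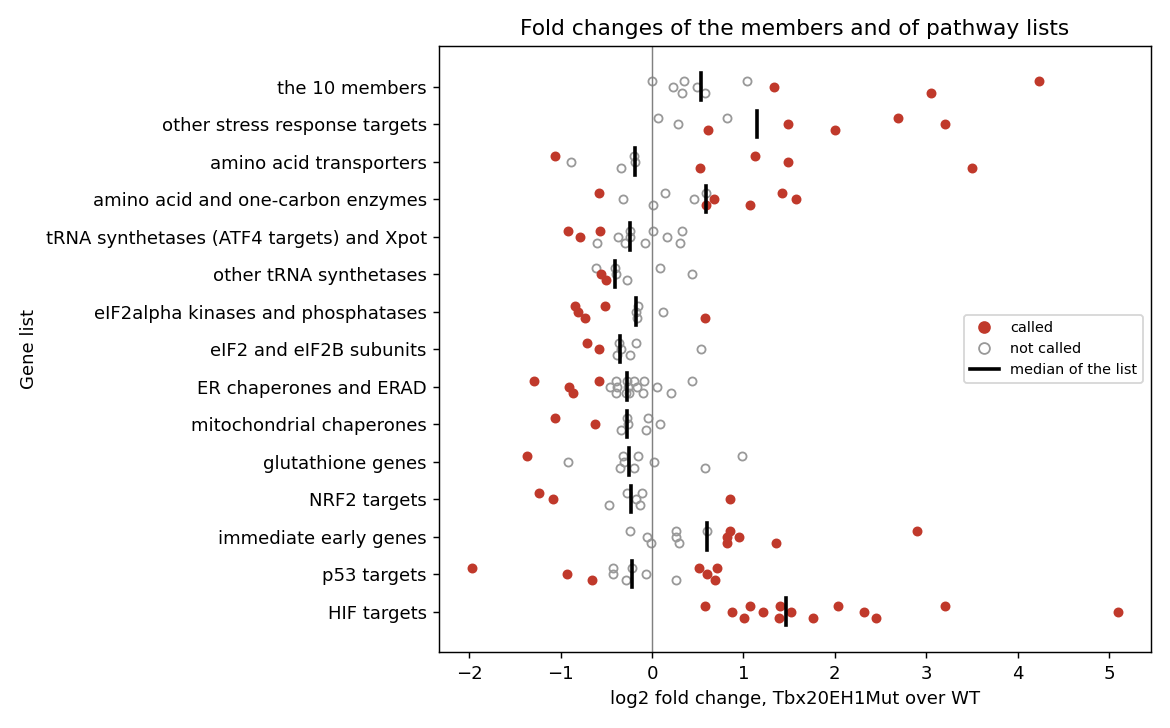
Log2 fold change (Tbx20EH1Mut over wild-type) of every tested gene of the 10 members and of 14 pathway lists, filled red where called and open grey where not, with a bar at the median of each list. The medians of the members, of the other induced genes, of the amino acid and one-carbon enzymes, of the immediate early genes and of the HIF targets lie above 0.5, and those of the other 10 lists lie below 0.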

How the data were processed

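RNA was taken from pools of 3 hearts with a column kit, and poly-A selected libraries were made and sequenced at a company. For each library the authors deposited a table of unnormalized whole-number counts per Ensembl gene. The submitters' processing notes list Trimmomatic 0.36 and STAR 2.5.2b. The counting tool and its strand setting are not given in the sources used here. Of 49315 listed genes, 48970 carry a symbol in GENCODE M21, an annotation of GRCm38.

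The members and all gene lists were chosen with earlier results of these data known. The test was edgeR 4.0.16 (R 4.3.3) with filterByExpr, TMM scaling, glmQLFit and glmQLFTest with genotype as the only term, and Benjamini-Hochberg adjustment over 17163 genes (common dispersion 0.0707). CPM use the TMM-scaled library size, and ± is the SD over 4 libraries unless SE is written. The SE is the absolute log2FC divided by the square root of edgeR's quasi-likelihood F statistic. The libraries are described as biological replicates. No 2 libraries of a genotype were alike within counting error. On simulated counts of 16823 genes, 79% of genes changed by a log2 fold change of 1 and 98% of those changed by 2 were called, and 2.21% of calls were false.

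The genes named are the 10 members, *Tbx20*, every eIF2alpha kinase list gene, the 5 genes most correlated with *Chac1*, and up to 3 called genes per list with the largest change, an average of 5 CPM or more and genotypes that do not overlap. Other called genes of a list were named after their values were seen, to complete its count, as were *Chac2*, *Dars*, *Wt1*, *Aldh1a2*, *Krt8*, *Krt18*, *Myl3*, *Actn2*, *Nup62*, *Il4i1*, *Nupr1*, *Fgf21*, *Xpot*, *Afp*, *Nes*, *Pax6*, *Sox1*, *Olig2* and *Adgre1*. There were 14 pathway lists and 9 marker lists. Promoters are those of RefSeq for GRCm38.p6, and all 10 members matched. For *Atf5* and *Psat1*, which have 2 entries each, either could hold a match.

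Alternatives were RLE, upper-quartile or no scaling beyond library size, DESeq2 1.42.0, voom of limma 3.58.1 and other count filters. Further ones were no fold change threshold, a replicate block, marker levels as covariates, and leaving out each library. Python 3.11.15, numpy 2.4.6, pandas 2.3.3 and matplotlib 3.10.9 were used for tables and plots. Among the members, *Chac1* in wild-type hearts rests on the fewest counts, 16 to 37 per library.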

Additional observations from a re-analysis of the deposited data

Results flagged for a closer look

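Among 126 groups of 4 libraries examined, 5 held 1 library far from the other 3, where chance gives about 1 in 20 groups. None of them was a member. *Plk2* was at 48.6 CPM in wild-type replicate 1, with the other wild-type libraries at 58.5 to 60.5 CPM. *Ankrd37* was at 6.13 CPM in wild-type replicate 2 (others 7.83 to 7.98 CPM) and at 45.9 CPM in Tbx20EH1Mut replicate 1 (others 38.4 to 39.5 CPM). Cardiomyocyte markers summed to 20947 CPM in wild-type replicate 2, below 26745 to 27067 CPM in the others. Proepicardium markers summed to 254 CPM in Tbx20EH1Mut replicate 2, above 227 to 229.9 CPM in the others.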

How the results depend on the processing

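*Chac1*, *Trib3* and *Ddit3* were called in all 8 fits with a library left out and in all 10 alternative fits of the 8 libraries. The called members numbered 3 to 6 when a library was left out, 6 without Tbx20EH1Mut replicate 3. *Phgdh*, at 0.003 in the reported fit, turned negative with library size alone (-0.024), DESeq2 (-0.0096), limma-voom (-0.20), no filter except 1 count (-0.0076), the replicate block (-0.20), the cardiomyocyte covariate (-0.23) and the foregut covariate (-0.75). The foregut covariate also turned *Sesn2* (-0.068), *Psat1* (-0.59) and *Eif2ak4* (-0.38). With libraries left out, *Phgdh* ranged from -0.24 to 0.29, *Psat1* from -0.0070 to 0.46 and *Eif2ak4* from -0.0040 to 0.31. None of these 4 genes was called in the reported fit, and beyond the model's own terms the cause was not tested. The gap between *Chac1* and the other members narrowed by 3.03 to 3.52 with a library left out.

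Over all genes 4218 were called, 2836 to 5667 with a library left out and 3681 to 5581 under the other alternatives. Of 150 tested pathway list genes 64 were called, 52 to 69 with a library left out and 60 to 76 otherwise, the 76 with no fold change threshold. With upper-quartile scaling 61.6% of calls were higher, against 50.9% as reported, and the median of all genes moved to 0.09. Replicate numbers were not taken as pairs in the reported fit. The deviations of same-numbered libraries from their genotype means correlated at -0.51, 0.45, 0.09 and 0.13, and not every library correlated best with its own number. Deviations within a genotype depend on each other, so these values cannot show whether same-numbered libraries shared a litter or preparation. The foregut covariate took the calls of 14 list genes or genes most like *Chac1*, the replicate block those of 4. Over all genes the foregut covariate fit called more, 5454 against 4218 in the reported fit. With the replicate block 3681 genes and 3 members were called, and of the called list genes *Slc3a2* (0.49), *Mars1* (-0.57), *Dele1* (-0.50) and *Bbc3* (0.67) lost their calls. With a library left out, *Slc3a2* and *Bbc3* lost theirs in 6 of 8 fits, *Aars*, *Mars1*, *Kars* and *Sesn1* in 5 and *Slc1a4* in 3. Of 1342 alternative values computed, 1250 kept their direction and call or stayed within their margin, 35 lost a call, 8 gained one, 33 counts moved and 16 turned.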

Other observations

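The remaining marker lists, for cells that a dissected heart could also hold, gave these sums. Hepatic and visceral endoderm markers reached 2.88 to 11.7 CPM in wild-type and 6.04 to 154 CPM in Tbx20EH1Mut libraries (exact two-sided permutation test, p = 0.171). Tbx20EH1Mut replicate 2 held the most of them, with *Afp*, the fetal serum protein of yolk sac and liver, at 93.8 CPM. Neural crest markers summed to 59.1 to 66.7 CPM against 76.6 to 99.7 CPM and neural tube markers to 213 to 232 CPM against 238 to 262 CPM (exact permutation tests, p = 0.0286 each, the smallest possible). Of the 6 neural crest markers tested 1 was called, higher, and their log2FC values ran from -0.96 to 2.08. The neural sum was mostly *Nes*, which other cells express, while *Sox1* and *Olig2* had at most 2 counts in any library. Of the 5 neural markers tested 1 was called, *Pax6*, a factor of neural and other progenitors, which rose from 1.87 to 6.29 CPM (log2FC 1.75, edgeR adjusted p = 0.00307) with no overlap. Proepicardium (p = 0.143) and macrophage markers (p = 0.743) did not separate in the same exact permutation test. Of the 8 proepicardium markers 2 rose all the same, the epicardial factor *Wt1* from 25.5 ± 8.16 to 76.7 ± 14.0 CPM (SD, n = 4 each, log2FC 1.59, edgeR adjusted p = 0.00118), with no overlap, and *Aldh1a2*, which makes retinoic acid, with a log2FC of 1.35 (edgeR adjusted p = 0.0498) and overlapping genotypes. The 6 others were not called. Macrophage markers summed to under 8 CPM in every library, and *Adgre1* was at 0 in 7 of the 8 libraries.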
